A study of Mus musculus with 20 samples.

Results

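Macrophages grown from the bone marrow of Gpr35-/- mice were compared with macrophages grown from Gpr35+/+ mice. Each genotype had 5 RNA libraries, 10 of the 20 libraries of the series, and the remaining 10 came from ileum of the same genotypes. The genes compared were chosen by level: of 23361 rows in the macrophage table, 11439 had at least 0.5 FPKM in at least 5 libraries. FPKM is the number of reads per gene scaled by transcript length and library size. The Gpr35-/- line came from a mutant mouse repository (KOMP) and lacks the receptor in every cell from the germline on, so a change in a cultured macrophage may date from any earlier stage. The study names the mice as C57BL/6 and gives no subline; Gpr35+/+ mice were littermates of the Gpr35-/- mice. The labels give no age and list the treatment of all macrophages as none. The study states only a range of ages in weeks that covers all its experiments, with mice matched for age and gender. According to the series design the cells were cultured from 5 mice per genotype, and which libraries came from which cultures is not stated beyond a number.

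GPR35 is a G protein-coupled receptor of gut epithelium and of myeloid cells such as macrophages. Its agonists include the tryptophan metabolite kynurenic acid and lysophosphatidic acid, and it signals through Gαi and Gα13 proteins and β-arrestin. In epithelium and in macrophages it has been tied to the Na+/K+-ATPase. This pump holds the sodium and potassium gradients across the plasma membrane and with them the volume of the cell. The study reports that macrophages grown from Gpr35-/- marrow were larger than those from Gpr35+/+ marrow. The title of the series names the effect of GPR35 loss on transcripts of both tissues as its subject, and no separate question for the macrophage libraries is stated.

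All 10 libraries carried the genes that define macrophages. The 17 measured macrophage markers summed to between 10300 and 11800 FPKM in Gpr35+/+ and between 9820 and 11100 FPKM in Gpr35-/- libraries. Csf1r, the receptor for the growth factor M-CSF, stood at 508 to 658 FPKM and 530 to 644 FPKM. The lysozyme gene Lyz2 was listed at 0 in all 10 libraries, while its neighbour Lyz1, a close copy, stood at 366 to 712 FPKM, so the reads of this pair cannot be assigned with certainty. Defining genes of erythroid cells summed to at most 0.319 FPKM, with Hba-a1 and Hba-a2 listed at 0 in every library, and those of fibroblasts to at most 1.37 FPKM, with Lum listed at 0. A value of exactly 0 in this table can be a failed estimate, so these sums may be too low. Neutrophil genes summed to 673 to 1490 FPKM in Gpr35+/+ and 816 to 1230 FPKM in Gpr35-/- libraries. T cell genes summed to 75.3 to 97.2 FPKM over all libraries, of which Il7r alone made up 74.6 to 96.5 FPKM, and B cell genes to 4.61 to 8.31 FPKM. Depth relative to the first Gpr35+/+ library was 0.812 to 1 in Gpr35+/+ and 0.785 to 1.02 in Gpr35-/- libraries. Absolute read numbers are unknown, and counting intervals are therefore not given. Xist was present at 36.7 to 44.1 FPKM in all 10 libraries and the 4 Y-linked genes read at most 0.00702 FPKM. Gpr35+/+ library 1 and Gpr35-/- library 5 stood apart from their groups. When limma estimated the weight of each library from its residuals, these libraries received 0.448 and 0.263, against 0.866 to 2.30 for the others.

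Of the 10 libraries 7 also held small amounts of gut RNA. The 23 listed genes of intestinal epithelium, Lyz1 left out, summed to 91.1, 107, 221, 320 and 257 FPKM in Gpr35+/+ libraries 1 to 5, and to 243, 0.760, 0.856, 0.525 and 109 FPKM in Gpr35-/- libraries 1 to 5. Gpr35-/- libraries 2, 3 and 4 were near 0, and the other Gpr35-/- libraries lay within the Gpr35+/+ range. Fabp6, Zg16 and Tff3, an ileal bile acid binding protein and 2 secreted goblet cell proteins, followed the same pattern, with Tff3 at 5.95 to 24.2 FPKM in Gpr35+/+ and 17.8, 0, 0, 0 and 6.67 FPKM in Gpr35-/- libraries 1 to 5. An exact permutation test of the sums gave a two-sided p of 0.10, where the smallest possible is 0.0079. The 129 genes whose macrophage mean lay under 1% of their ileum mean, or that were listed at 0 in ileum but belong to this list, were set aside from all counts given below; each of the 129 had an estimate below 0 and 91 had an unadjusted p under 0.05. This left 11308 genes, and counts are also given with Gpr35-/- libraries 1 and 5 alone and with libraries 2, 3 and 4 alone where these differ.

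Of the 11308 genes, 3 were higher and 3 were lower in Gpr35-/- macrophages at an adjusted p under 0.05, which is 0.0265% of genes in each direction (limma on log2(FPKM + 0.5), Benjamini-Hochberg adjustment). The genes that rose were Aqp12, Wdfy1 and Nnt. The genes that fell were Gpr35 itself, Efcab7 and Fabp7. They lie on 4 chromosomes. At an unadjusted p under 0.05, 529 genes (4.68%) were higher and 582 (5.15%) lower. Counts past the adjusted threshold depended on the libraries: without Gpr35-/- library 5, 13 genes were higher and 20 lower, with Gpr35-/- libraries 2, 3 and 4 alone 37 and 45, and the lower genes numbered 1 without any 1 of Gpr35+/+ library 3 and Gpr35-/- libraries 1, 2 and 4. The median log2 change of all genes was 0.0043.

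The targeted gene was reduced in every Gpr35-/- library. Gpr35 lies on chromosome 1 of GRCm38 from 92950865 to 92986391 on the plus strand. It read 2.53, 2.72, 2.51, 3.03 and 3.32 FPKM in Gpr35+/+ libraries 1 to 5. The Gpr35-/- libraries read 0.124, 0.0952, 0.105, 0.132 and 0.125 FPKM, a mean of 0.116 ± 0.0155 against 2.82 ± 0.347 FPKM (SD, n = 5 each) and thus 4.12% of the Gpr35+/+ level. This is -2.43 on the log2 scale (standard error, SE, 0.078; adjusted p = 8.1e-08). All 10 genotype labels were met by the level of the gene.

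The closest measured gene downstream, Aqp12, was found in Gpr35-/- macrophages and hardly at all in Gpr35+/+ macrophages. Aqp12 encodes an aquaporin of intracellular membranes that is otherwise known from acinar cells of the pancreas. It lies on the plus strand of chromosome 1 from 93006334 to 93012269 and starts 19.9 kb after the end of Gpr35. It was listed at 0, 0, 0.0403, 0 and 0 FPKM in Gpr35+/+ macrophages. The Gpr35-/- values were 2.40, 4.55, 3.05, 4.08 and 2.99 FPKM. No fold is given against a group listed at 0; the fitted value of 2.92 (SE 0.14, adjusted p = 1.6e-06) depends on the pseudocount. The gene was among the 5 that passed the filter on low values through 1 genotype alone, as was Gpr35.

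Wdfy1 rose by the clearest margin of the genes with a level in both genotypes. It encodes a WD repeat protein with a FYVE domain, which binds phosphatidylinositol 3-phosphate on early endosomes, and it has been described as an adaptor of Toll-like receptors 3 and 4. It read 6.37, 6.98, 6.53, 6.45 and 7.51 FPKM in Gpr35+/+ and 22.5, 21.1, 22.7, 19.6 and 21.8 FPKM in Gpr35-/- libraries. The groups were far apart and each was tight: 6.77 ± 0.481 against 21.6 ± 1.23 FPKM (SD, n = 5 each). This is a 3.18-fold level, with a fitted change of 1.60 on the scale of log2(FPKM + 0.5) (SE 0.054, adjusted p = 8.1e-08 by limma). Wdfy1 lies on the same chromosome as Gpr35, 13.2 Mb away, from 79702262 to 79776143 on the minus strand.

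Nnt encodes the mitochondrial transhydrogenase that makes NADPH from NADH with the proton gradient. The Gpr35+/+ libraries read 7.59, 7.89, 7.77, 6.58 and 8.12 FPKM and the Gpr35-/- libraries 14.6, 15.8, 14.5, 15.4 and 13.6 FPKM. Its level was 1.94-fold that of Gpr35+/+ macrophages (7.59 ± 0.595 against 14.8 ± 0.860 FPKM, SD, n = 5 each; log2 change 0.92, SE 0.059, adjusted p = 3.3e-05) with no overlap. Nnt lies on chromosome 13, away from Gpr35. Nnt is known to be disrupted in the C57BL/6J subline and intact in C57BL/6N, and Wdfy1 is also known to differ between the sublines. Of a list of 4 genes known to differ between the sublines, Wdfy1 and Nnt rose. Ide had a log2 change of -0.25 (unadjusted p = 0.069 by limma) and Cyfip2 of 0.02 (unadjusted p = 0.75), the latter with either sign when libraries were left out. A difference between sublines need not change the level of a transcript. A difference in subline between the genotypes was not tested.

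Fabp7 and Efcab7 fell, to 45.6% and 43.5% of their Gpr35+/+ level, and their calls depended on single libraries. Fabp7 encodes a fatty acid binding protein best known from glia of the brain. It read 45.7, 50.4, 46.1, 54.1 and 32.4 FPKM in Gpr35+/+ and 15.5, 21.0, 19.7, 22.5 and 25.6 FPKM in Gpr35-/- libraries. The means were 45.7 ± 8.21 and 20.9 ± 3.73 FPKM (SD, n = 5 each) and the groups did not overlap (log2 change -1.11, SE 0.15, adjusted p = 0.047). The call held in 2 of the 10 fits that left out 1 library, with adjusted p from 0.0052 to 0.19. Efcab7 encodes an EF-hand protein that anchors the EvC complex at the base of cilia, where Hedgehog signals are relayed. It read 2.08, 1.40, 1.85, 1.41 and 1.98 FPKM in Gpr35+/+ and 0.769, 0.690, 0.852, 0.699 and 0.781 FPKM in Gpr35-/- libraries, with no overlap. The means of 1.74 ± 0.320 and 0.758 ± 0.0663 FPKM (SD, n = 5 each) stood -0.82 apart on the log2 scale (SE 0.099, adjusted p = 0.012), and the call held in 6 of the 10 fits that left out 1 library (adjusted p 0.010 to 0.068).

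**Figure D1:**
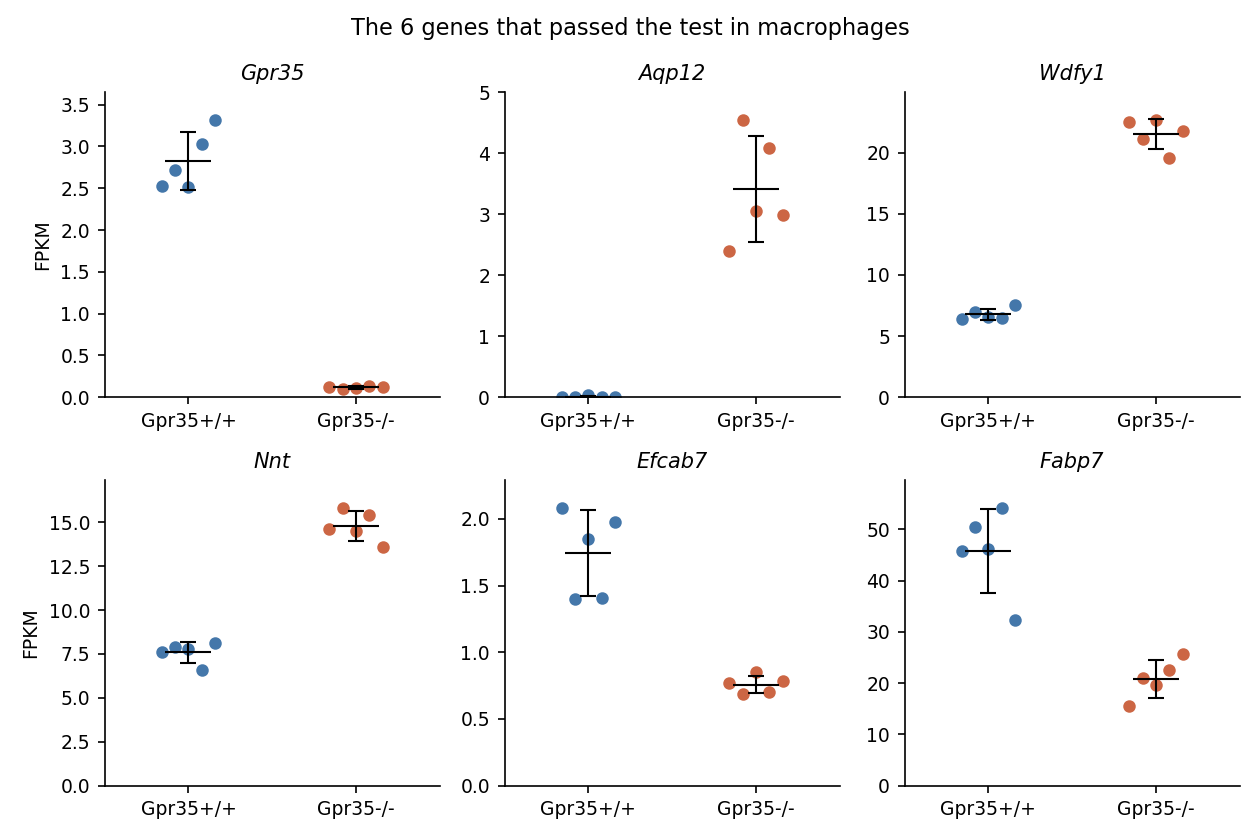
FPKM (vertical axes, each from 0) of the 6 genes that passed the test, with 1 point per library, Gpr35+/+ in blue and Gpr35-/- in red, and bars for the mean and SD of 5 libraries. In each panel every library of one genotype lies above every library of the other, as for Fabp7 with 32.4 to 54.1 against 15.5 to 25.6 FPKM.

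No listed relative of the genes that passed was called in the same fit. Lists of the families of these genes were written with their results known, so that the counts describe the other members. Among 18 measured genes of cell volume control and the aquaporins, Aqp12 alone passed; Oxsr1, a kinase that switches ion cotransporters on under osmotic stress, had a log2 change of 0.14 (unadjusted p = 0.0066) with no overlap at 12.5 to 14.1 against 14.5 to 15.8 FPKM. Lrrc8a and Lrrc8c, subunits of the volume-regulated anion channel, had changes of 0.13 and 0.11 (adjusted p = 0.41 and 0.56). Among 19 genes with FYVE domains or of early endosomes only Wdfy1 passed, and the median of the list was 0.02. Its next member by p was Zfyve9, which presents Smad proteins to the TGF-β receptor (log2 change 0.22, adjusted p = 0.38), and Zfyve19 (0.06) and Rab5c (-0.06) followed. Of 20 measured enzymes of NADPH and antioxidant defence, Nnt was the member that passed, and 3 had an unadjusted p under 0.05 as lower, against 5.15% of all genes. Gpx1, glutathione peroxidase, had 485 to 568 FPKM in Gpr35+/+ and 433 to 460 FPKM in Gpr35-/- libraries (log2 change -0.21, adjusted p = 0.24, with weights 0.042), which did not overlap, whereas Sod1 (-0.08) and Hmox1 (-0.28) overlapped. Of 5 measured binding proteins for fatty acids and their CoA esters Fabp7 was the 1 that passed, beside log2 changes of 0.08 for Dbi, -0.10 for Fabp5 and 0.05 for Fabp4. Fabp4 changed sign when Gpr35+/+ library 5 was left out.

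Partners of Efcab7 in the EvC complex had low listed values or overlapping ones. Evc was listed at 0 in all libraries, which can be a failed estimate, and Evc2 read at most 0.00903 FPKM, while Iqce, the protein that binds EFCAB7, stood at 6.20 to 7.65 FPKM in Gpr35+/+ and 5.87 to 7.51 FPKM in Gpr35-/- libraries. Of 7 measured genes of the complex and of Hedgehog signalling, Efcab7 alone passed. Smo, the signal transducer of the pathway, stood at 1.07 to 1.19 against 0.804 to 1.06 FPKM (log2 change -0.20, adjusted p = 0.37), a gap of narrow width. Ptch1, the Hedgehog receptor, had 0.10, and Ift88, a cilium transport protein, 0.05.

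Around the targeted gene, Aqp12 was the single neighbour that passed. Within 5 Mb of the start of Gpr35, 47 other genes were measured, of which 1 passed as higher and 0 as lower by limma. At an unadjusted p under 0.05, 2 of the 47 were higher and 3 lower, against 4.68% and 5.15% of all genes. Their median log2 change was 0.001, and without Aqp12 the remaining 46 ranged from -0.36 to 0.12. The lowest was Glrp1, a glutamine repeat protein, at 1.24 to 1.39 FPKM in Gpr35+/+ and 0.563 to 1.12 FPKM in Gpr35-/- libraries (adjusted p = 0.33). These ranges did not overlap. On the 5′ side of Gpr35 its next measured neighbour, the protease gene Capn10, had means of 3.69 and 3.70 FPKM (log2 change 0.00). Farther on that side Dusp28, a phosphatase, had a log2 change of -0.23 (adjusted p = 0.36), Gpc1, a heparan sulfate proteoglycan, -0.27 (adjusted p = 0.43), and Rnpepl1, an aminopeptidase, -0.10 (adjusted p = 0.49). Beyond Aqp12, the kinase Stk25 had 0.10 (adjusted p = 0.43). Within 20 Mb, 132 genes were measured and 2, Aqp12 and Wdfy1, passed.

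**Figure D2:**
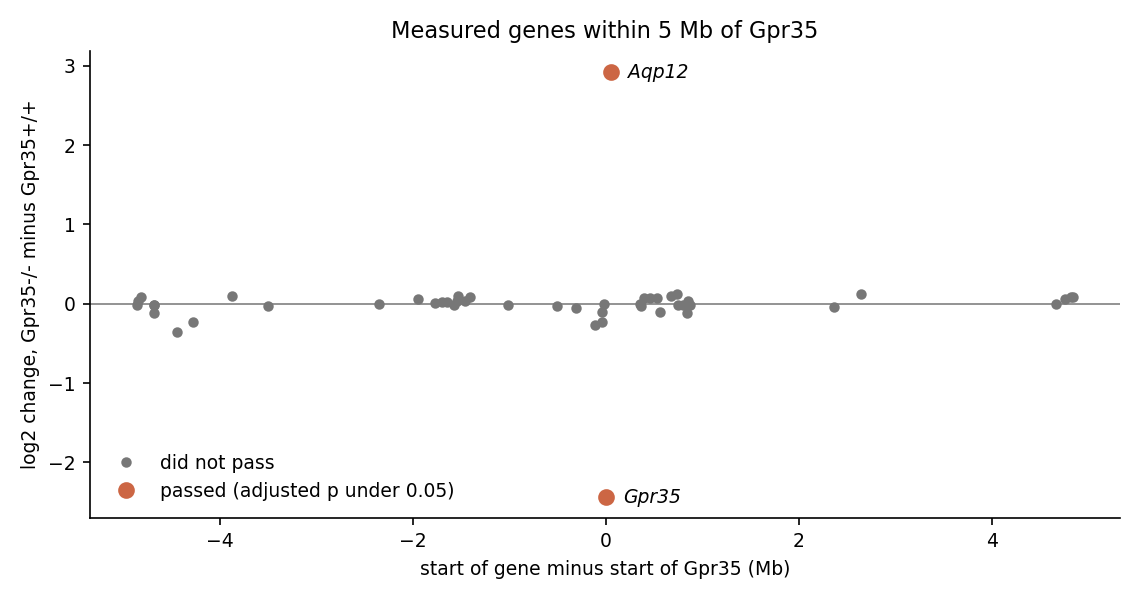
Log2 change (Gpr35-/- minus Gpr35+/+, vertical axis) of the measured genes within 5 Mb of Gpr35 by the distance of their start from the start of Gpr35 in Mb; large red points passed the test and small grey points did not. Aqp12 at 2.92 and Gpr35 at -2.43 stand apart from 46 genes between -0.36 and 0.12.

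Among the 33 lists with at least 5 tested genes, cholesterol synthesis had the highest median. Cells make cholesterol from acetyl-CoA in the mevalonate pathway, and the transcription factor SREBP2 (Srebf2) switches on the genes of the pathway when sterol in the endoplasmic reticulum is low; INSIG1 holds SREBP2 back when sterol is plentiful. Of 17 listed genes Fdft1 was listed at 0 in all macrophage libraries and 16 were tested. None passed at an adjusted p under 0.05 by limma (0.21 to 0.58), so the pathway is described by its values and not as changed. All 16 estimates were above 0, where 52.3% of all genes were, and 15 had an unadjusted p under 0.05, against 4.68% of all genes in this direction. The median log2 change was 0.33 (range 0.10 to 0.56). The genes share libraries and a common regulator and are not independent. The list was written with earlier results of these data known, so counts of its members describe the list and do not test it.

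At the entry of the pathway, Hmgcs1, which makes HMG-CoA, read 28.9, 23.3, 29.6, 23.6 and 27.1 FPKM in Gpr35+/+ and 37.0, 40.8, 35.1, 41.7 and 32.4 FPKM in Gpr35-/- libraries (log2 change 0.49, SE 0.088, adjusted p = 0.21). The groups did not overlap, and Gpr35-/- library 5 was the lowest of its group. Further along, the kinase Mvk (0.10) and the decarboxylase Mvd (0.27) overlapped. Idi1, the isomerase that makes the second isoprene unit, read 13.3, 8.45, 13.1, 8.47 and 12.5 against 15.9, 17.4, 13.9, 18.1 and 16.7 FPKM (0.56, SE 0.14, adjusted p = 0.26). Gpr35+/+ libraries 2 and 4 were the lowest here and for Hmgcs1. Fdps, farnesyl diphosphate synthase, stood at 27.9 to 39.9 against 40.6 to 51.8 FPKM (0.45, adjusted p = 0.26).

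In the sterol branch, Sqle, which takes squalene to its epoxide, had a log2 change of 0.37 and overlapped, and Lss, which closes the ring, had 0.24. Cyp51, the lanosterol demethylase, read 10.9, 7.37, 10.2, 7.76 and 9.61 in Gpr35+/+ and 13.2, 13.1, 11.0, 13.8 and 14 FPKM in Gpr35-/- libraries (0.49, SE 0.11, adjusted p = 0.22). No library of the first group reached the second. The lowest estimates were those of Mvk (0.10), Nsdhl (0.11), Dhcr7 (0.14) and Sc5d (0.18).

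The regulators of the pathway showed similar values. Insig1 read 24.4, 19.9, 24.3, 19.5 and 24.5 FPKM in Gpr35+/+ and 28.7, 31.3, 26.2, 31.6 and 27.9 FPKM in Gpr35-/- libraries, without overlap (0.37, SE 0.081, adjusted p = 0.22). Srebf2 itself stood at 25.5 to 33.4 against 34.4 to 38.1 FPKM (0.29, adjusted p = 0.26). The FPKM of the list summed to 286, 220, 282, 224 and 265 in Gpr35+/+ and 323, 344, 301, 346 and 329 in Gpr35-/- libraries, 256 ± 31.5 against 329 ± 18.3 (SD, n = 5 each), and the sums did not overlap. Without overlap and higher in Gpr35-/- were 8 of the 16 genes, against 1.05% of all genes (119) in this direction; 103 genes (0.911%) did not overlap and were lower. After quantile normalization these counts over all genes were 151 and 72.

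**Figure D3:**
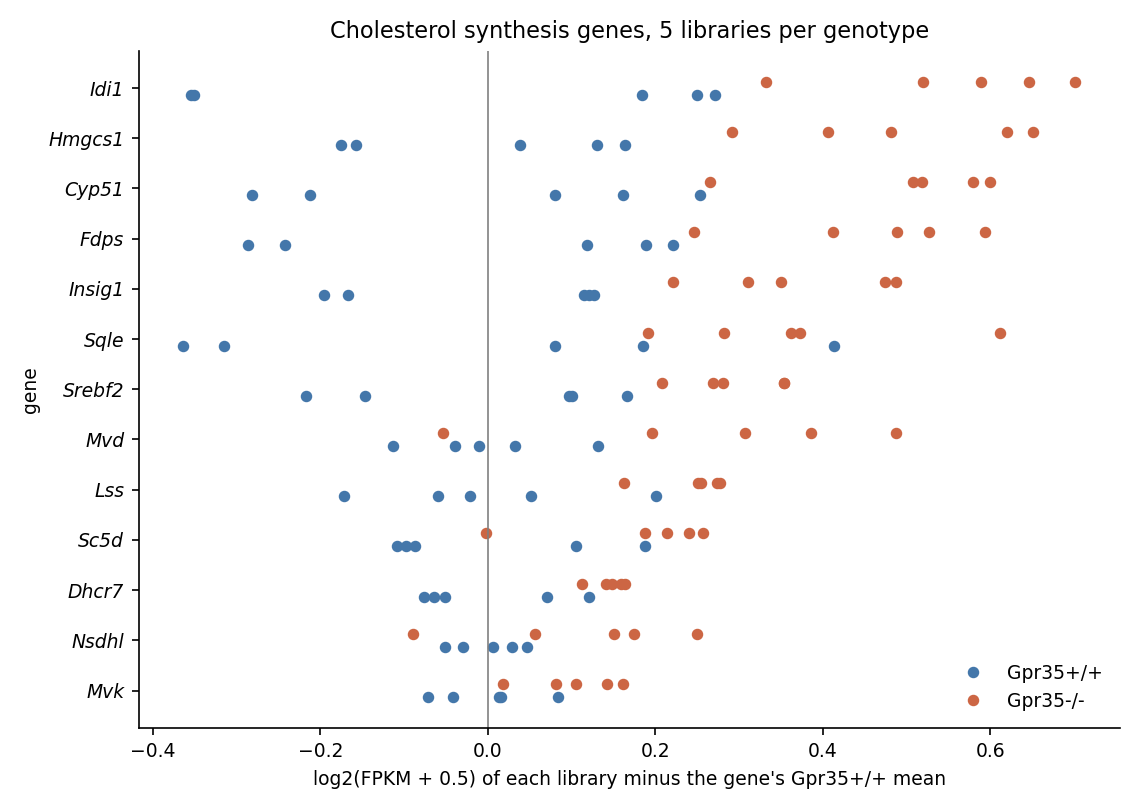
The 13 cholesterol synthesis genes shown, of 16 measured, in 10 macrophage libraries, as log2(FPKM + 0.5) minus the mean of the gene in Gpr35+/+ libraries (horizontal axis; 1 point per library, Gpr35+/+ blue, Gpr35-/- red), ordered by the difference of the means. Gpr35-/- libraries lie to the right for every gene on average, by 0.10 for Mvk to 0.56 for Idi1, and 6 of the 13 show no overlap.

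The height of the list did not rest on 1 library. Its median ranged from 0.27 to 0.37 when each library was left out, and was 0.30 with Gpr35-/- libraries 1 and 5 alone, which carried gut transcripts, and 0.35 with libraries 2, 3 and 4 alone, which did not. The part of gut transcripts in these values was not tested. Calls did depend on the libraries that stood apart. With weights per library 6 of the 16 genes passed, among them Hmgcs1 (adjusted p = 0.016), Insig1, Cyp51, Mvd and Srebf2 (0.046), where 59 of all genes (0.522%) passed as higher and 64 (0.566%) as lower. Without Gpr35+/+ library 1 and Gpr35-/- library 5, a choice made after the values were seen, 1 gene passed, Hmgcs1 (adjusted p = 0.032), and the median was 0.37.

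The promoters of 3 of these genes are shown because members of the list stood together and SREBP2 is known to act with the CCAAT-binding factor NF-Y at such promoters. Windows of 250 bases before the start of transcription, read 5′ to 3′ on the strand of the gene, were taken from RefSeq on GRCm38.p6; entries were found for 11 of the 16 genes (13 windows). The motifs, chosen after the values of the list were seen, were CCAAT and the sterol element letters TCACNCCAC, each searched on both strands; they do not overlap each other. Capitals mark a match, and ATTGG is CCAAT on the other strand. Hmgcs1 is at chr13:119690101-119690350 on the plus strand, Mvd at chr8:122443423-122443672 and Sc5d at chr9:42264301-42264550, both on the minus strand, and none of these windows holds bases of an annotated exon.
Hmgcs1: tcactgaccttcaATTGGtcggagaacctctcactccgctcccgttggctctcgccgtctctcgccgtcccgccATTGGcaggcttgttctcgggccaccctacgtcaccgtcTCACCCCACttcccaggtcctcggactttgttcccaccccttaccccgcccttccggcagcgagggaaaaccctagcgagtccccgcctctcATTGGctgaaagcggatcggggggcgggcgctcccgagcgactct
Mvd: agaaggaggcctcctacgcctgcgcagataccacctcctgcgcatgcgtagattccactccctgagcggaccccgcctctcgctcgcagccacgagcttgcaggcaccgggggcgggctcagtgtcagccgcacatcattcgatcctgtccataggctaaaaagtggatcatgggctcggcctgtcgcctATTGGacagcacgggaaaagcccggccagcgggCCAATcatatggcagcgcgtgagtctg
Sc5d: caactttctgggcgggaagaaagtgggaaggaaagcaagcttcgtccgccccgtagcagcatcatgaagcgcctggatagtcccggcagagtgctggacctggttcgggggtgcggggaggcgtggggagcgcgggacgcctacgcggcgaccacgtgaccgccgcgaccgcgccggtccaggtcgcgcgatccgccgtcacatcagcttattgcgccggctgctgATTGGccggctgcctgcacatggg
CCAAT was found in 11 of the 13 windows and at least once for each of the 11 genes, and in 33.8% of 32851 windows of all genes. The Hmgcs1 window holds 3 copies, that of Mvd 2 and that of Sc5d 1. TCACNCCAC was found in 1 of the 13 windows, that of Hmgcs1, and in 1.05% of all windows. A match of letters is a description of the window and not a bound site.

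Further lists of lipid metabolism were less uniform. Of 12 further sterol genes measured, a list added after the first results, 0 passed by limma and 7 had an estimate above 0. The median was 0.05, and 3 had an unadjusted p under 0.05 as higher, against 4.68% of all genes. This list holds Sc4mol and Hsd17b7, which are also enzymes of cholesterol synthesis. The cholesterol synthesis list in turn holds the regulators Insig1 and Srebf2, so the difference between the lists depends on how they were drawn. Stard4, a sterol carrier, stood at 5.05 to 7.15 against 7.13 to 8.74 FPKM (log2 change 0.40, adjusted p = 0.22). Sc4mol, a sterol methyl oxidase, had 0.29 and passed with weights (adjusted p = 0.038). Acat2 and Hsd17b7 had 0.21 and 0.28. Of 12 measured genes of fatty acid synthesis 0 passed by limma and 10 were above 0, at a median of 0.08. An unadjusted p under 0.05 was reached by 2 as higher, against 4.68% of all genes. These were Acss2, which makes acetyl-CoA from acetate (0.38, adjusted p = 0.31, with weights 0.019), and Acaca, acetyl-CoA carboxylase (0.46, adjusted p = 0.33). Fasn, the synthase itself, had 0.11. Efflux and esterification of sterol, the opposite task, had a median of -0.05 over 15 genes. Targets of LXR and PPAR, the nuclear receptors that sense oxysterols and fatty acids, had a median of -0.02 over 16 genes.

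In ileum the cholesterol genes did not sit high. Of the 16 genes 4 had an estimate above 0 there and the median log2 change was -0.10, beside 0.0015 for all ileum genes. Both tables were scaled separately by the authors, and ileum is a tissue of many cell types, where a smaller share of a cell type and less RNA per cell cannot be told apart.

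The genotype change differed between macrophages and ileum for 4 genes, which is 0.0354% of the 11288 genes with a value in both tables (limma, 1 fit over 20 libraries). Aqp12, Efcab7 and Fabp7, which had passed in macrophages, were among them. For Aqp12 the ileum means were 0.0396 and 0.761 FPKM. Its fitted changes depend on the pseudocount in both tissues, so they are not ranked. Efcab7 (0.188 and 0.199 FPKM) and Fabp7 (0.0291 and 0.0238 FPKM) lay below the filter in ileum, so a fall could hardly have been seen there. For Wdfy1 the ileum means were 3.92 and 15.5 FPKM, for Nnt 5.54 and 12.9 FPKM and for Gpr35 2.98 and 0.0290 FPKM. No difference of the change between tissues was called for these (differences of -0.26, -0.29 and 0.28, SE 0.11, 0.21 and 0.12).

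The Na+/K+-ATPase, whose link to the receptor the study addresses, held no called gene in macrophages. The values are transcript levels, whereas the study measured ion levels, in human cell lines, human stem cells and mouse blood and urine, and not in macrophages. It refers to earlier measurements of pump activity, which included macrophages. Of 5 measured subunits and regulators, 0 passed by limma and 0 had an unadjusted p under 0.05, at a median of -0.04. Atp1b3, the β subunit with the highest level here, had means of 174 ± 6.25 FPKM in Gpr35+/+ and 169 ± 5.53 FPKM in Gpr35-/- libraries (SD, n = 5 each; log2 change -0.04, SE 0.036). Fxyd5, a regulator of the pump, had -0.07 (SE 0.050) at 1030 to 1180 against 980.0 to 1130 FPKM. Atp1b1 was set aside as a gut transcript: it read 1.00, 0.704, 2.58, 2.75 and 2.87 FPKM in Gpr35+/+ and 1.80, 0.0950, 0.0276, 0.159 and 1.21 FPKM in Gpr35-/- libraries, low in the 3 libraries without gut transcripts, against 870 FPKM in Gpr35+/+ ileum.

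Transcripts of osmotic stress genes lay close to 0 as well. Of 11 measured, 0 passed by limma and 0 had an unadjusted p under 0.05, with a median of 0.06. The study measured this stress by osmolytes, kinase phosphorylation and NFAT5 protein in nuclei, which transcript levels do not show. Those measurements were made in human cell lines, patient biopsies and mouse intestine, and not in macrophages. In a human intestinal cell line, the study reported that GPR35 silencing left the response of NFAT5 mRNA to high salt unaffected. Nfat5, the transcription factor of the osmotic response, stood at 4.41 to 5.18 FPKM in Gpr35+/+ and 4.86 to 5.75 FPKM in Gpr35-/- libraries (log2 change 0.10). S100a4, a calcium-binding protein induced by high salt, had 0.08, Hspa4l, a chaperone of the response, 0.08, and Sgk1, the salt-induced kinase, -0.16. The sign of S100a4 turned after quantile normalization. Na+-dependent amino acid transporters had a median of 0.07 over 10 measured genes. Slc6a6, which imports the osmolyte taurine, had 0.07, the glycine transporter Slc6a9 0.23, Slc38a9 0.12 and the glutamine transporter Slc38a1 0.07, with 0 members past the test and 0 at an unadjusted p under 0.05.

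Partners of the receptor were examined next. Of 22 measured genes of G protein signalling, 0 passed by limma, 2 had an unadjusted p under 0.05 as higher and 3 as lower, against 4.68% and 5.15% of all genes, and the median was -0.01. Rgs2, which shortens signals of Gq and other G proteins, stood at 120 to 136 against 95.4 to 131 FPKM (log2 change -0.30, adjusted p = 0.27, with weights 0.019). Grk5, a kinase that switches active receptors off, did not overlap at 6.27 to 7.38 against 7.47 to 8.17 FPKM (0.14, adjusted p = 0.37). Gnai3 and Gna11, a Gαi and a Gαq class subunit, had 0.09 and -0.16. Among 23 measured chemoattractant and purine receptors, 0 passed and 2 had an unadjusted p under 0.05, both lower, against 5.15% of all genes in this direction. S1pr1, the receptor for sphingosine 1-phosphate, stood at 47.2 to 60.1 FPKM in Gpr35+/+ and 43.3 to 45.6 FPKM in Gpr35-/- libraries (-0.26, adjusted p = 0.26), without overlap. The complement receptor C3ar1 had -0.10 and P2ry12, a receptor for ADP, -0.29.

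Interferon genes had the lowest median of the lists with at least 5 measured genes, and they varied from library to library in Gpr35-/- macrophages. All 25 had an estimate below 0, 0 passed by limma, and 3 had an unadjusted p under 0.05, against 5.15% of all genes in this direction. The median was -0.18 (-0.28 to -0.10 when each library was left out). Irf7, the factor that amplifies type I interferon, read 206, 238, 207, 304 and 238 FPKM in Gpr35+/+ and 86.7, 112, 224, 111 and 244 FPKM in Gpr35-/- libraries (-0.73, SE 0.29, adjusted p = 0.42). Gpr35-/- libraries 1, 2 and 4 lay below every Gpr35+/+ library, and libraries 3 and 5 lay within their range. The sum of the list took the same order, with 1490 to 1800 FPKM in Gpr35+/+ and 1040, 1180, 1650, 1190 and 1790 FPKM in Gpr35-/- libraries. Ifi44 and Oasl1, both induced by interferon, had -0.91 and -0.60 (adjusted p = 0.39 and 0.44), and Usp18, which dampens the receptor, -0.29. Of the Gpr35-/- libraries, 1 and 5 carried gut transcripts.

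Of 28 genes of Toll-like receptor signalling, Wdfy1 was the 1 that passed, and the median was -0.02. Tlr13 and Tlr3, receptors for bacterial and double-stranded RNA, had -0.18 each (adjusted p = 0.31 and 0.41), and the kinase Irak1 had -0.07. Tlr3 itself, whose adaptor WDFY1 is said to be, stood at 5.34 to 6.36 FPKM in Gpr35+/+ and 4.59 to 5.75 FPKM in Gpr35-/- libraries. Of 15 inflammatory genes 0 passed and 1 had an unadjusted p under 0.05 as lower, against 5.15% of all genes. That gene was Il10, the anti-inflammatory cytokine (0.775 to 1.16 against 0.512 to 0.874 FPKM, -0.31, adjusted p = 0.38). Tnf had -0.28, the costimulator Cd80 -0.15 and Nfkbia, the inhibitor of NF-κB, -0.10. Of 11 measured genes of alternative activation, the state that interleukin 4 induces, 0 passed by limma. An unadjusted p under 0.05 was reached by 1 as higher and 3 as lower, against 4.68% and 5.15% of all genes. Lower without overlap was 1, against 0.911% of all genes. With weights per library 2 passed as lower, Tgm2 (adjusted p = 0.016) and Msr1 (0.04), against 0.566% of all genes. Mrc1, the mannose receptor, had 0.21, the scavenger receptor Msr1 -0.40, the lipid sensor Trem2 -0.09 and Tgm2, a transglutaminase, -0.34, the last at 131 to 176 against 113 to 131 FPKM.

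Of the 17 measured genes of macrophage identity 0 passed by limma, 1 had an unadjusted p under 0.05, and the median was -0.05. Below 0 lay 15 of these estimates, the lowest at -0.28, and above 0 lay 2. The genotypes did not overlap for 1 member, which was lower, where 0.911% of all genes were. With weights per library 1 member passed as lower, where 0.566% of all genes did. Among the members that overlapped, Ctss, a lysosomal protease, had -0.12, Emr1, which encodes F4/80, -0.17 and the Fc receptor Fcgr1 -0.18. Of 7 measured genes of dendritic cells and antigen presentation 0 passed; Ciita, which switches on MHC class II, had 0.27 (adjusted p = 0.37), and H2-Aa, H2-Eb1 and H2-Ab1 had 0.27, 0.27 and 0.19 with overlap. The cell cycle genes, 25 in number, were all below 0 with a median of -0.14, of which 0 passed by limma and 0 had an unadjusted p under 0.05. Their sum was 1260, 829, 944, 762 and 1020 FPKM in Gpr35+/+ and 1010, 743, 790, 731 and 1320 FPKM in Gpr35-/- libraries, so that the libraries standing apart, Gpr35+/+ 1 and Gpr35-/- 5, were the highest of their groups. The median was 0.32 with Gpr35-/- libraries 1 and 5 alone and -0.42 with libraries 2, 3 and 4 alone. Ccnb2 (-0.28), Plk1 (-0.29), Cdc20 (-0.20) and E2f1 (-0.09), which drive division, give no direction between the genotypes.

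**Figure D4:**
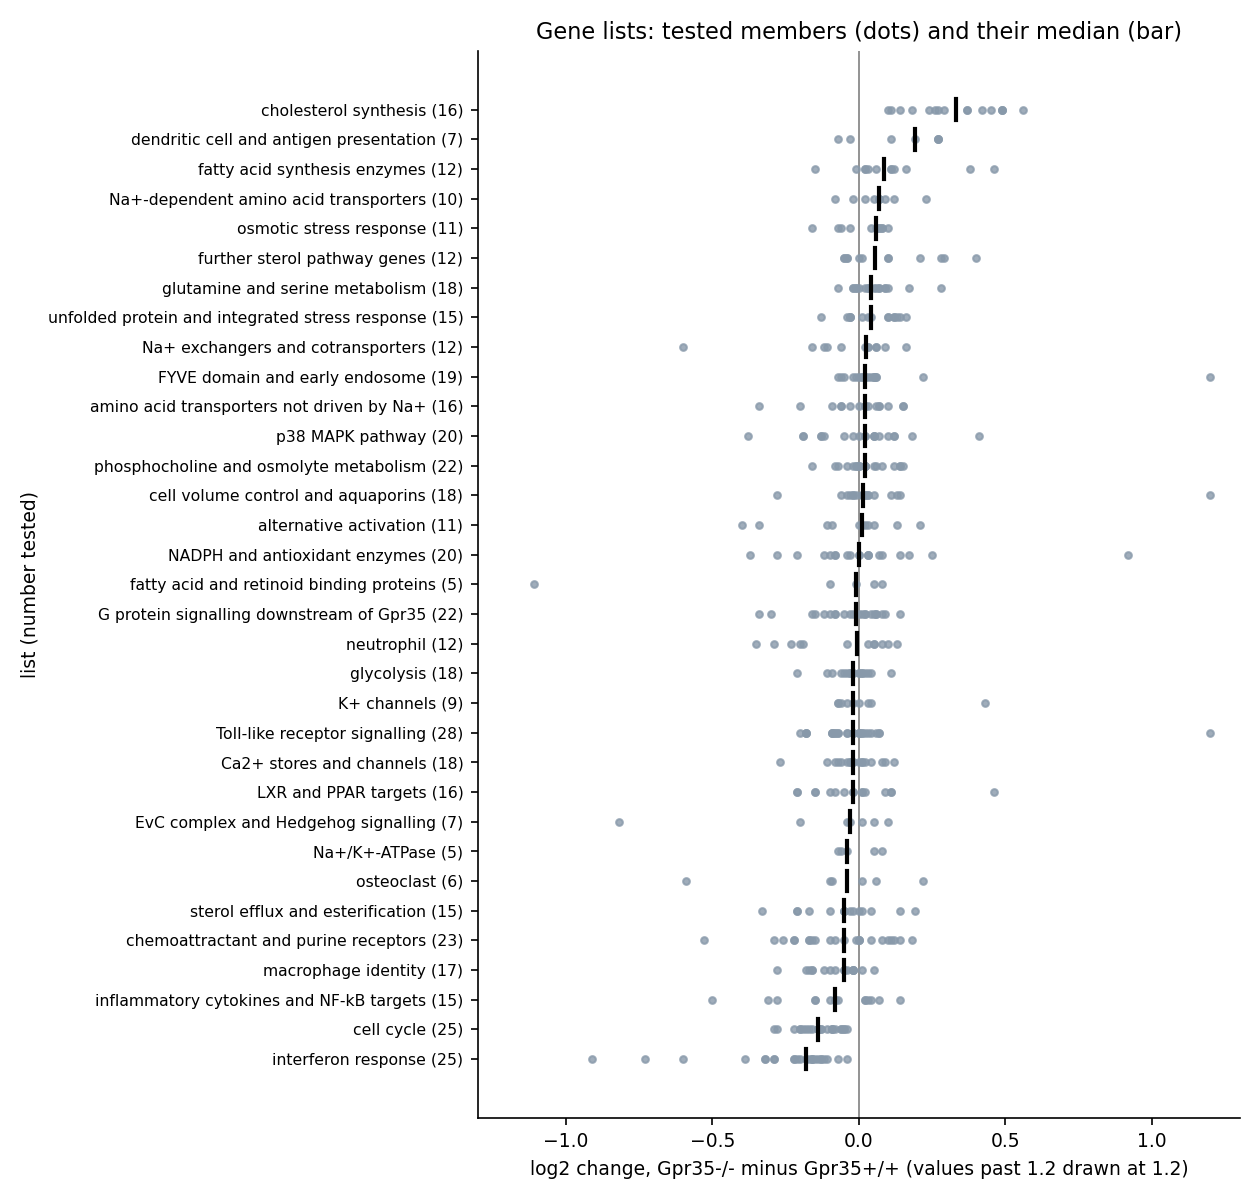
Log2 change (Gpr35-/- minus Gpr35+/+, horizontal axis; values past 1.2 are drawn at 1.2) of the tested members (grey points) of the 33 gene lists with at least 5 tested genes, with the median of each list as a black bar. Cholesterol synthesis (0.33), cell cycle (-0.14) and interferon response (-0.18) are at the ends, and the other 30 medians lie between -0.08 and 0.19.

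Of the 40 lists, 33 held no member past the test. Genes of at least 5 FPKM without overlap and without a call were then ranked by change. Ccl5, a chemokine for T cells and monocytes, read 12.3, 24.0, 17.8, 26.0 and 12.6 FPKM in Gpr35+/+ and 4.82, 6.54, 10.2, 6.26 and 12.1 FPKM in Gpr35-/- libraries (log2 change -1.17, SE 0.29, adjusted p = 0.26). The gap between the groups was narrow. Mid1, a ubiquitin ligase on microtubules, read 29.6, 17.7, 12.1, 14.8 and 13.9 against 9.04, 9.55, 11.0, 9.26 and 8.39 FPKM (-0.80, adjusted p = 0.27), the highest value in Gpr35+/+ library 1. Ctsl, the lysosomal protease cathepsin L, read 847, 1090, 951, 1190 and 963 FPKM in Gpr35+/+ and 752, 735, 764, 725 and 804 FPKM in Gpr35-/- libraries (-0.41, SE 0.081, adjusted p = 0.22, with weights 0.016). Cathepsin L had by far the highest level of these genes, and its Gpr35-/- libraries were tight. Gng11, a G protein γ subunit, had -0.57 (10.8 to 15.9 against 6.56 to 10.7 FPKM). Cd34, a marker of progenitors, had -0.49 (4.72 to 6.62 against 2.84 to 4.49 FPKM). The marker list of mast cells and progenitors that holds Cd34 summed to 6.20 to 8.03 against 4.15 to 6.30 FPKM. Cd34 made up most of this sum, with means of 5.61 of 7.08 FPKM in Gpr35+/+ and 3.85 of 5.15 FPKM in Gpr35-/- libraries. The sum therefore largely repeats the value of Cd34, and the other tested member had -0.1. Upward, Erdr1 read 49.4, 23.8, 47.7, 54.6 and 39.1 FPKM in Gpr35+/+ and 115, 125, 143, 115 and 74.7 FPKM in Gpr35-/- libraries (1.43, SE 0.24, adjusted p = 0.17, with weights 0.019). The name Erdr1 had no position in the annotation used here. Among the other upward genes were Idi1 and Cyp51, described above, and 2 zinc finger genes.

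These zinc finger genes, Etohi1 and Gm14295, belong to a cluster on chromosome 2 whose genes start between 175061549 and 178023284 on GRCm38. Such clusters hold many near-identical copies of KRAB-type repressor genes, so 50-base reads cannot be placed with certainty and the values of single copies are uncertain; the cluster was chosen after its values were seen. Of its genes 10 were measured. All 10 had an estimate above 0 (median 1.02, range 0.67 to 2.09), 9 did not overlap, and 0 passed by limma (adjusted p 0.22 to 0.37), whereas all 10 had an unadjusted p under 0.05. Over all genes, 52.3% had an estimate above 0, 1.05% were higher without overlap and 4.68% were higher at an unadjusted p under 0.05; the choice of the cluster used these values, so nothing is read from the counts. Etohi1 read 4.44, 4.38, 4.43, 0.415 and 0.0366 FPKM in Gpr35+/+ and 8.63, 8.82, 9.42, 9.06 and 9.46 FPKM in Gpr35-/- libraries. The Gpr35+/+ libraries thus fell into a middle level, libraries 1 to 3, and a low level, libraries 4 and 5, while all Gpr35-/- libraries shared a high level. Gm14295 read 12.8, 13.9, 12.1, 3.22 and 1.96 against 23.5, 21.3, 22.3, 21.7 and 22.7 FPKM, and Gm14326 read 1.08, 1.41, 1.11, 0.360 and 0.167 against 2.17, 2.45, 2.56, 2.54 and 2.33 FPKM. The same steps in the same libraries were seen for each. The source of the 3 levels was not tested. In ileum 8 of the 10 genes had an estimate above 0.

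**Figure D5:**
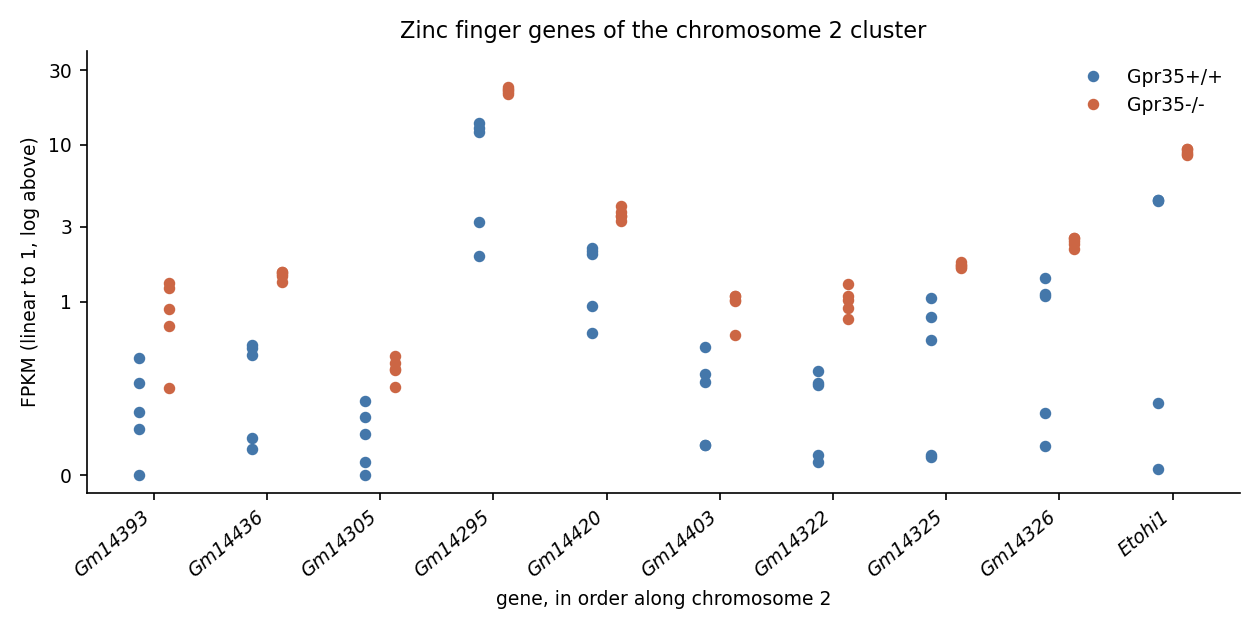
FPKM (vertical axis, linear up to 1 and logarithmic above) of 10 zinc finger genes in their order along chromosome 2, with 1 point per library, Gpr35+/+ in blue and Gpr35-/- in red. Gpr35-/- libraries are close together, as for Etohi1 at 8.63 to 9.46 FPKM, while the Gpr35+/+ libraries split, with 3 at 4.38 to 4.44 FPKM and 2 at 0.0366 and 0.415 FPKM.

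A second zinc finger cluster, on chromosome 4 with starts from 145585166 to 147132038, lay on the other side. It was also chosen after its values were seen, so nothing is read from the counts. All 5 measured genes had an estimate below 0 (median -0.34, range -0.60 to -0.19), and 0 passed by limma. An unadjusted p under 0.05 was reached by 3, against 5.15% of all genes as lower. Without overlap were 2, against 0.911% of all genes as lower. Gm13238 read 3.46, 4.70, 3.62, 5.39 and 4.65 FPKM in Gpr35+/+ and 2.83, 2.38, 2.95, 3.03 and 2.28 FPKM in Gpr35-/- libraries, and Znf41-ps stood at 5.32 to 6.83 against 4.47 to 5.27 FPKM. These were the members without overlap, and both passed with weights per library. Both are annotated as pseudogenes.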

How the data were processed

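RNA of bone marrow derived macrophages was sequenced as TruSeq stranded mRNA libraries with 50-bp single-end reads. The authors deposited 1 table per tissue with 23361 rows; the macrophage table names no unit, and its values were read as FPKM because it shares the layout and scaling of the ileum table. The submitters' processing notes name GRCm38; which aligner, counter and annotation were used is not given in the sources used here. Read totals are unknown. Relative depth was read from the smallest steps of FPKM in low genes.

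From the deposited FPKM, values were taken to log2 after adding 0.5 and compared by limma 3.58.1 (R 4.3.3; robust spread with a trend, genotype alone, threshold 0.05, Benjamini-Hochberg) over 11437 genes. The rows of Eef1a1 (0 in all Gpr35+/+, 3720 to 3830 FPKM in Gpr35-/- libraries) and Arhgap21 (6.16 to 7.57 FPKM, and 0 in all Gpr35-/- libraries) were left out. Log2 changes are on this scale and understate those of low genes. The study names no test for these libraries. The members and lists were chosen with earlier results of these data known. Of 40 lists, 3 were added after the first results, and those described were picked with values in view; rules named up to 4 members of each by p, the 6 genes nearest Gpr35 by p and the 6 largest changes without overlap in each direction, and other genes were chosen after their values were seen. A few genes chosen by this rule were left out and are not reported here. Coordinates are from GENCODE M21. The procedure was tested on simulated data. P-values measure the spread between these libraries. Alternatives were other pseudocounts, filters, scalings, weights, spreads and sets of libraries, and a block of the replicate number.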

Additional observations from a re-analysis of the deposited data

Results flagged for a closer look

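Among 180 sets of 5 values, 18 held an extreme value whose distance to its neighbour, as a share of the whole range, exceeded 0.71; by chance about 1 in 20 sets would. In Gpr35+/+ macrophages these were Aqp12 (1, as 4 libraries are listed at 0), Cyfip2 (0.806), Ciita (0.781), Grk5 (0.766), Oxsr1 (0.762), Ccnb2 (0.735) and Rnpepl1 (0.726). In Gpr35-/- macrophages they were Ccnb2 (0.969), Scd2 (0.831), Gpc1 (0.799), Cdc20 (0.792), Tnf (0.780), Lrrc8c (0.753), Slc6a6 (0.750), Ift88 (0.740), Irak1 (0.723), Cd80 (0.722) and Plk1 (0.717).

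The genotype change differed between macrophages and ileum (macrophages minus ileum, limma over 20 libraries) by 1.70 for Aqp12, -0.85 for Efcab7 and -1.10 for Fabp7. None of these compares measurable changes in both tissues: Aqp12 was listed at 0 in 4 of the 5 Gpr35+/+ macrophage libraries, so its value depends on the pseudocount, and Efcab7 and Fabp7 lay below the filter on low values in ileum, where their change was bound to be near 0.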

How the results depend on the processing

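Of 2239 values of 90 named genes under the alternatives, 2227 kept their sign, and Gpr35, Aqp12, Wdfy1 and Nnt passed in every alternative that gave them a value, Efcab7 in 19 of 24 and Fabp7 in 13 of 25. Counts of genes past the test, 3 higher and 3 lower, were 59 and 64 with weights per library, 37 and 45 with Gpr35-/- libraries 2, 3 and 4 alone, and 23 and 34 without Gpr35+/+ library 1 and Gpr35-/- library 5 (chosen after seeing the data). Higher genes numbered 8 with all 20 libraries in 1 fit. Lower genes numbered 1 with a filter of at least 1 FPKM in every library, which leaves out Gpr35 and Efcab7, and 1 with Gpr35-/- libraries 1 and 5 alone. Leaving out 1 library gave 3 to 13 higher and 1 to 20 lower genes, the most without Gpr35-/- library 5 and the fewest lower without Gpr35+/+ library 3 or Gpr35-/- library 1, 2 or 4. Genes whose change differed between tissues numbered 1 with a pseudocount of 0.1 and 1 to 8 leaving out 1 library, with 8 without ileum Gpr35+/+ library 3. The cause was not tested.

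With the replicate number as a block 3 genes were higher and 3 lower, and Fabp7 lost its call. The deviations of same-numbered libraries from their group means had correlations of 0.1364, -0.1216, -0.1311, 0.1502 and 0.2438 for numbers 1 to 5. Those of differently numbered libraries ranged from -0.3377 to 0.3433. These values are mixed and do not decide whether the numbers pair the libraries.

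Signs turned with Gpr35-/- libraries 1 and 5 alone for Fabp4 (-0.003), Plk1 (0.04), Cdc20 (0.03), E2f1 (0.03) and Ift88 (-0.02), for S100a4 after quantile normalization (-0.02), for Fabp4 without Gpr35+/+ library 5 (-0.04, with -0.04 to 0.11 over all fits without 1 library), and for Cyfip2 with weights (-0.009), without Gpr35+/+ library 4 (-0.03), without Gpr35-/- library 1 (-0.004) or 5 (-0.002), and with Gpr35-/- libraries 2, 3 and 4 alone (-0.04). The cause was not tested.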
